A study of Mus musculus with 768 samples.

Results

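D-type cyclins (Ccnd1, Ccnd2 and Ccnd3), their kinase partners (Cdk4 and Cdk6), 4 inhibitors of these kinases (Cdkn1a, Cdkn1b, Cdkn1c and Cdkn2c) and the retinoblastoma gene Rb1 were followed in single Schwann cells of the adult mouse sciatic nerve. These 10 genes, of 25700 in the count table, were chosen by name as the switch that sets entry into the cell cycle, and their levels were described in myelinating, non-myelinating and cycling cells of each plate. All 10 passed the filter on low counts.

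Cells came from C57BL/6J mice at P60 that carried a Cre transgene, Rosa26-loxPstoploxP-YFP and βActin-DsRed, and single YFP-positive cells were sorted into 2 plates and sequenced with Smart-Seq2, which reads whole transcripts and has no molecular identifiers. The Cre marks the Schwann cell lineage, so every cell shares this history, no group was treated, and each plate pooled male and female mice. Of 768 cells, 674 had at least 1500 detected genes and were kept, 340 in plate 1 and 334 in plate 2. Median reads per kept cell were 158689 in plate 1 and 452484 in plate 2.

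D-type cyclins bind CDK4 or CDK6 in response to growth signals, and the active kinase phosphorylates the retinoblastoma protein, which then releases E2F factors that switch on genes of DNA synthesis. Inhibitors of the INK4 family, such as Cdkn2c, bind CDK4 and CDK6 themselves, whereas those of the Cip/Kip family, Cdkn1a, Cdkn1b and Cdkn1c, bind complexes of cyclins with their kinases. Schwann cells leave the cell cycle before they myelinate and can divide again after nerve injury.

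Clusters were named from markers fixed for each class, with the 10 genes and 56 further genes of the pathway left out of the clustering. Myelinating cells (myelinating-like, mSC-like in the plots, 2 clusters) numbered 151 in plate 1 and 73 in plate 2, and non-myelinating cells (non-myelinating-like, nm(R)SC-like in the plots, 4 clusters) 175 and 261. Summed over the myelin markers, myelinating-like cells held 73767 and 72530 reads per 1000000 (CPM) in plates 1 and 2, against 6800 and 7411 in non-myelinating-like cells. The non-myelinating markers summed to 117 and 206 CPM in myelinating-like cells against 3568 and 2677 CPM in non-myelinating-like cells, and Gap43 was at 0 in myelinating-like cells of both plates. Cells with at least 5 reads of both Mki67 and Top2a were called cycling and kept out of both classes. There were 14 in plate 1, 4.12% of kept cells (95% exact binomial interval 2.27 to 6.81). In plate 2 there were 0 of 334, for which the same interval reaches 1.10%. A cluster led by cell-cycle genes also held 14 cells of plate 2, counted as non-myelinating-like, with a median of 3989 reads. At that depth the rule can miss cycling cells. Cycling cells were thus described from 1 plate with no test.

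Sequence before the start is shown for 3 inhibitors that stood 4-fold or more apart between the classes in each plate (Cdkn1a, Cdkn1b and Cdkn2c). No such sequence was at hand for Cdkn1c. The 120 bases before a RefSeq start (GRCm38.p6) are written 5′ to 3′ on the strand of the gene, and capitals mark each GC box (GGGCGG, either strand).
Cdkn1a, chr17:29093649-29093768, plus strand: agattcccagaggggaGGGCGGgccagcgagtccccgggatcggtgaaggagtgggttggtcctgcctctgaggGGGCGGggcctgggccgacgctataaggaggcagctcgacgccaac
Cdkn1b, chr6:134920281-134920400, plus strand: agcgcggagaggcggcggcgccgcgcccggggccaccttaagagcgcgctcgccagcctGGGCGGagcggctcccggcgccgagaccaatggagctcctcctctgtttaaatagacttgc
Cdkn2c, chr4:109666757-109666876, minus strand: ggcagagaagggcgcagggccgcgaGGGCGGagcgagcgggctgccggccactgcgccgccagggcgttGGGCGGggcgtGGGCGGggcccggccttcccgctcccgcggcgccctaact

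RefSeq windows were at hand for 6 of the 10 genes (Ccnd3, Cdkn1a, Cdkn1b, Cdkn2c, Cdk4 and Cdk6). Within 250 bases before a start, 5 of these 6 held a GC box, against 35.4% of all genes with a window, and Cdk6 held none. GC boxes were also common in further pathway genes with a window, in 9 of 12 E2F targets of S phase and 11 of 14 regulators. So they were in 4 of 5 later cyclins and kinases and 6 of 10 RB-E2F core genes. A GC box was thus not particular to the 6 genes. Cdkn1a and Cdkn2c each had a second start with no GC box, and only their starts with a GC box are printed above. None of the 6 held an E2F-type word (TTTCCCGC, TTTGGCGC, TTTCGCGC or TTTGCCGC, either strand), which 2.16% of all genes held. None held a CHR word (TTTGAA or TTCGAA, either strand), which 19.6% of all genes held, or the strict p53 double half-site, which 3 of 27025 genes held. E2F-type, CHR and p53 matches are rare enough over all genes that finding none in 6 does not set these genes apart.

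Between myelinating-like and non-myelinating-like cells, 3 of the 10 genes passed the test. Cdkn1a and Cdkn1b were higher in myelinating-like cells and Ccnd1 was higher in non-myelinating-like cells. Reads were summed per plate and class, and edgeR's quasi-likelihood test with the plate as a block called 279 of 13207 genes at an adjusted p under 0.05, 2.11% of those tested (1.29% higher in myelinating-like and 0.825% higher in non-myelinating-like cells). DESeq2 called 6 of the 10 genes and 11.9% of all genes, and limma on means over cells 6 of the 10 and 6.0% of all. Without the plate block edgeR called 131 genes, 0.992%, and Ccnd1 alone among the 10. The 4 sums left 1 residual degree of freedom per gene, so that the test leaned on the spread shared across genes. The plates hold different mice but are only 2. With the block, p-values rest on how far the class ratio differed between the plates, with spread borrowed from other genes.

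**Figure D1:**
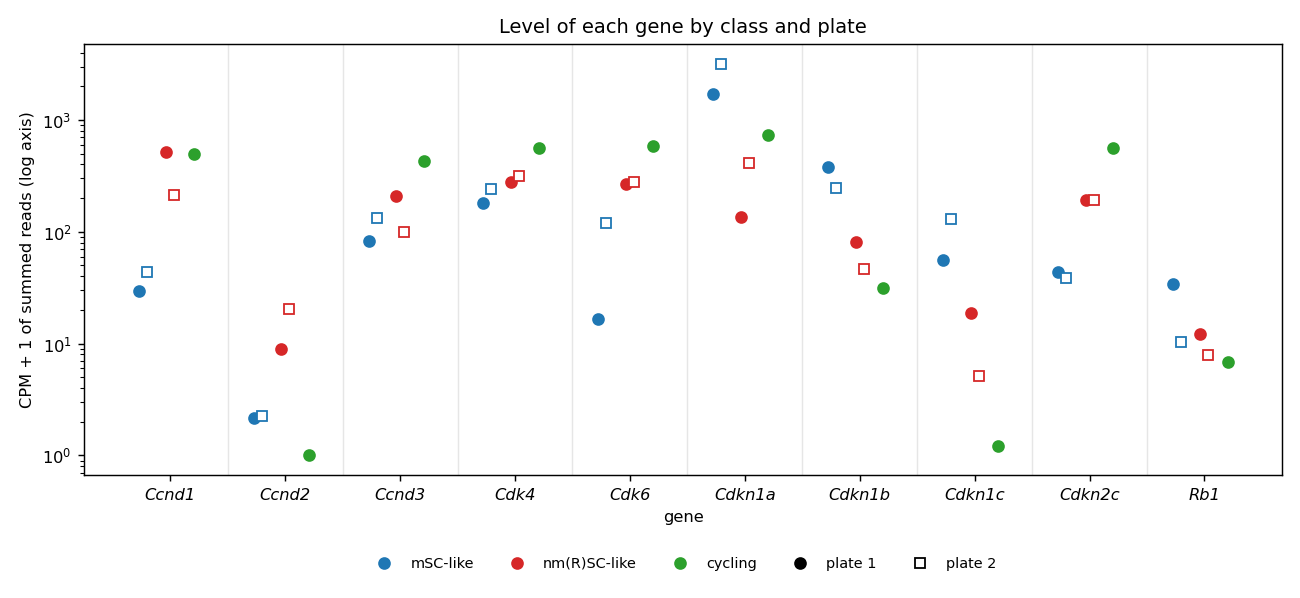
Level of each of the 10 genes as CPM + 1 of the summed reads (log axis), by class (colour) and plate (filled circle, plate 1; open square, plate 2). Cdkn1a and Cdkn1b lie higher in mSC-like cells and Ccnd1 in nm(R)SC-like cells in both plates, and cycling cells have a value in plate 1 only.

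Ccnd1, the D-type cyclin best known as a target of growth signals, stood at 28.4 and 42.2 CPM in myelinating-like cells of plates 1 and 2 and at 512 and 213 CPM in non-myelinating-like cells. The log2 ratio of myelinating-like over non-myelinating-like cells was -3.08 ± 0.541 (SE, edgeR, adjusted p = 0.0351, and 0.0497 without the plate block). A single cell held 64.0% of the Ccnd1 reads of plate 2 myelinating-like cells, which stood at 16.1 CPM without it. Shares at equal depth were taken after thinning each cell to 100000 reads and leaving out shallower cells, which kept 100 of 151 and 72 of 73 myelinating-like cells, 111 of 175 and 241 of 261 non-myelinating-like cells, and 12 of 14 cycling cells. At that depth at least 5 Ccnd1 reads were found in 12% and 6.94% of myelinating-like cells of plates 1 and 2, and in 73.9% and 22.4% of non-myelinating-like cells. Of the exon bases of Ccnd1 (chr7:144929931-144939925, minus strand, GRCm38), 23.4% overlap LTO1 on the other strand. The strand setting of the counting is not given in the sources used here, so that reads of both genes cannot be told apart there. LTO1 itself stood at 31.2 and 37.6 CPM in myelinating-like and 158 and 69.0 CPM in non-myelinating-like cells.

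Ccnd2 was nearly unread, at 1.15 and 1.23 CPM in myelinating-like and 7.98 and 19.5 CPM in non-myelinating-like cells (log2 ratio -3.21 ± 1.78, SE, edgeR, adjusted p = 0.575). Only 34 of the 768 cells held 5 or more of its reads. Ccnd3 stood at 82.3 and 131 CPM in myelinating-like cells and at 207 and 98.4 CPM in non-myelinating-like cells, so that the plates differed in direction (log2 ratio -0.28 ± 0.514, SE, edgeR, adjusted p = 0.940). Its sign turned under other ways of naming the classes. Of its exon bases 4.11% overlap Bysl on the other strand.

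Cdk4, a kinase partner of all D-type cyclins, stood at 178 and 241 CPM in myelinating-like cells and 276 and 313 CPM in non-myelinating-like cells, with a log2 ratio of -0.33 ± 0.346 (SE, edgeR, adjusted p = 0.845), and 19.7% of its exon bases overlap Tspan31. Cdk6 stood at 15.7 and 118 CPM in myelinating-like cells and at 266 and 279 CPM in non-myelinating-like cells. The ratio (-2.48 ± 0.713, SE, edgeR) did not pass the test with an adjusted p of 0.175. In plate 2 a single myelinating-like cell held 51.0% of the Cdk6 reads of its class, which stood at 59.1 CPM without that cell.

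**Figure D2:**
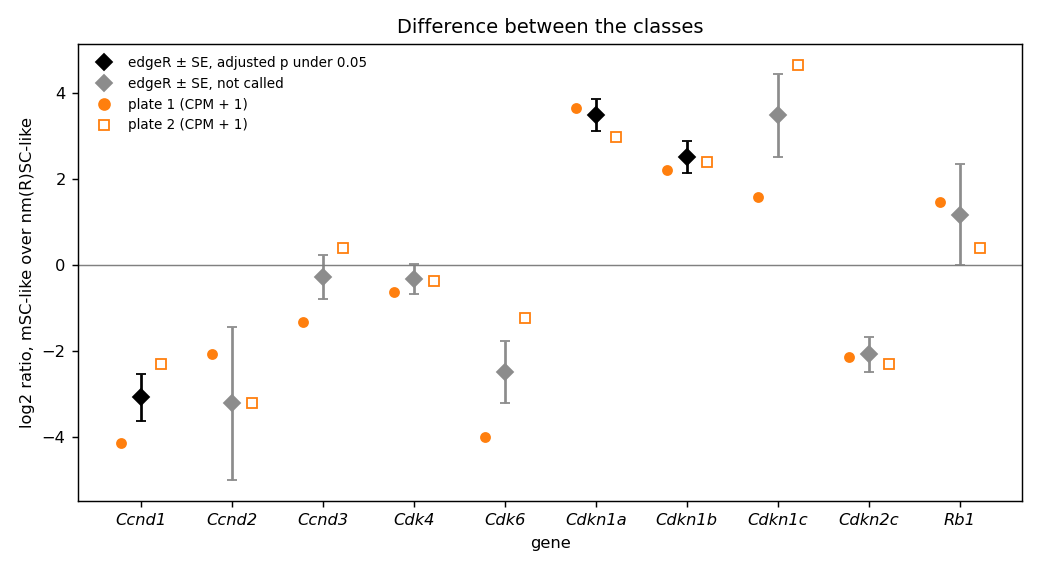
Log2 ratio of mSC-like over nm(R)SC-like cells for each gene: diamonds show the edgeR estimate with its SE (black, adjusted p under 0.05; grey, not called), and orange symbols the ratio within plate 1 (circle) and plate 2 (square). The 3 black diamonds are Ccnd1 below 0 and Cdkn1a and Cdkn1b above it, and the plates fall on opposite sides of 0 for Ccnd3.

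Cdkn1a, which encodes p21 and is a classic target of p53, was the highest of the 10 per kb of exon in myelinating-like cells, and stood at 1706 and 3191 CPM against 136 and 408 CPM in non-myelinating-like cells. Its log2 ratio was 3.49 ± 0.377 (SE, edgeR, adjusted p = 0.0112, and 0.0836 without the plate block). At equal depth, 96.0% and 95.8% of myelinating-like cells held 5 or more Cdkn1a reads against 31.5% and 34.0% of non-myelinating-like cells. Cdkn1a lies at chr17:29090976-29100727 on the plus strand (GRCm38).

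Cdkn1b, which encodes p27, stood at 376 and 245 CPM in myelinating-like cells and 80.4 and 45.6 CPM in non-myelinating-like cells. Its log2 ratio was 2.5 ± 0.377 (SE, edgeR, adjusted p = 0.0234, and 0.0679 without the plate block). Equal-depth shares were 86.0% and 80.6% in myelinating-like cells and 42.3% and 29.5% in non-myelinating-like cells. Cdkn1c, which encodes p57, stood at 55.0 and 128 CPM in myelinating-like and 17.6 and 4.15 CPM in non-myelinating-like cells. Its ratio of 3.47 ± 0.955 (SE, edgeR) had an adjusted p of 0.153. It was read in few cells: 17% and 11.1% of myelinating-like cells held 5 reads at equal depth, and a single cell gave 51.2% of the plate 2 reads, leaving 63.8 CPM without it.

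Per cell, 68 of 100 myelinating-like cells of plate 1 and 49 of 72 of plate 2 held 5 thinned reads of 2 of the 3 Cip/Kip genes at once, and 1 and 0 held none of them. Of non-myelinating-like cells, 47 of 111 and 112 of 241 held none. Ccnd1 and Cdkn1a met in 10 of 100 and 3 of 72 myelinating-like cells and in 26 of 111 and 25 of 241 non-myelinating-like cells.

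**Figure D3:**
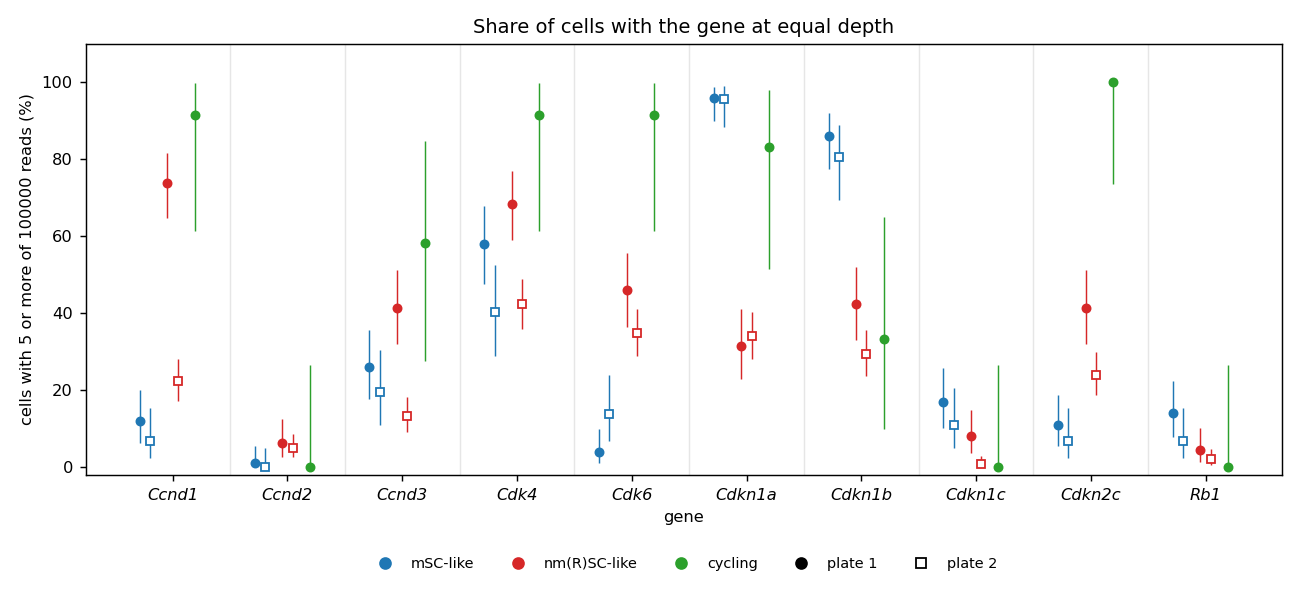
Percentage of cells with 5 or more reads of each gene after cells were thinned to 100000 reads, without the cells below that depth (points, with 95% exact binomial intervals that cover counting error only), by class and plate. Cdkn1a reached 96.0% and 95.8% of mSC-like cells, whereas Ccnd1 reached 73.9% and 22.4% of nm(R)SC-like cells.

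Cdkn2c, the INK4 inhibitor p18, ran the other way from the Cip/Kip genes. It stood at 42.7 and 37.7 CPM in myelinating-like cells and at 192 and 190 CPM in non-myelinating-like cells. The plates gave nearly the same values, yet the ratio of -2.08 ± 0.413 (SE, edgeR) missed the threshold with an adjusted p of 0.0540. Rb1, the substrate of the D-type kinases, was low throughout, at 32.8 and 9.43 CPM in myelinating-like and 11.2 and 6.95 CPM in non-myelinating-like cells (1.17 ± 1.18, SE, edgeR, adjusted p = 0.835). Its exons overlap Lpar6 (6.78%) and Rcbtb2 (8.11%) on the other strand.

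Per kb of exon, the order of the genes differed between the classes. In myelinating-like cells Cdkn1a led with 480 and 898 CPM per kb in plates 1 and 2. Cdkn1b (82.5 and 53.9 CPM per kb), Cdk4 (54.8 and 74.1) and Cdkn1c (27.0 and 63.0) came next, overlapped and changed order between the plates. Ccnd1 reached 6.03 and 8.97 CPM per kb there. In non-myelinating-like cells Cdk4 (84.9 and 96.3 CPM per kb), Ccnd1 (109 and 45.3), Cdkn1a (38.1 and 115) and Cdkn2c (71.5 and 70.9) overlapped or lay close, with no order held by both plates among Cdk4, Ccnd1 and Cdkn1a.

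Levels also varied within the classes, which is given as a description. Cluster 4 of the myelinating-like cells, led by Mfap5 and Ogn, held Cdkn2c at 2.4 and 0 CPM in plates 1 and 2, against 118 and 51.8 CPM in cluster 3, led by Emid1 and Ncmap. Ccnd1 stood at 9.8 and 2.3 CPM in cluster 4 and at 63.3 and 57.2 CPM in cluster 3, and Cdk6 at 3.6 and 27.7 against 38.4 and 152 CPM. Cdkn1c stood at 8.1 and 40.1 CPM in cluster 4 and 143 and 162 CPM in cluster 3. In plate 2, cells with 5 or more Ccnd1 reads were 2 of 19 in cluster 4 and 8 of 54 in cluster 3. For Cdkn1c they were 2 of 19 and 7 of 54, and for Cdk6 2 of 19 and 18 of 54. In plate 1 each gene had 2 of 89 such cells in cluster 4. Cluster 3 had 17 of 62 for Ccnd1, 25 for Cdkn1c and 7 for Cdk6. In plate 2 myelinating-like cells, 1 cell per gene held 64.0% of Ccnd1, 51.2% of Cdkn1c and 51.0% of Cdk6 reads. These plate 2 levels thus leaned on single cells. Cdkn1a was high in both myelinating-like clusters, at 2022 and 3571 CPM in cluster 4 and 1112 and 3048 CPM in cluster 3.

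Split by Mfap5 itself, myelinating-like cells with 5 or more of its reads (83 and 19 cells) held Cdkn2c at 12 and 0 CPM, and those with none (20 and 52 cells) at 105 and 54.1 CPM. Among non-myelinating-like cells, cluster 2, led by Ednrb and holding several ribosomal protein genes among its leading genes, had the highest Ccnd3, at 399 and 382 CPM against 71.8 to 109 CPM in clusters 0 and 1 of plate 1 and 16.4 to 68.1 CPM in plate 2. Cdkn2c showed the reverse, at 78.2 and 53.8 CPM in cluster 2 against 282 and 256 CPM in cluster 0 and 235 and 168 CPM in cluster 1.

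**Figure D4:**
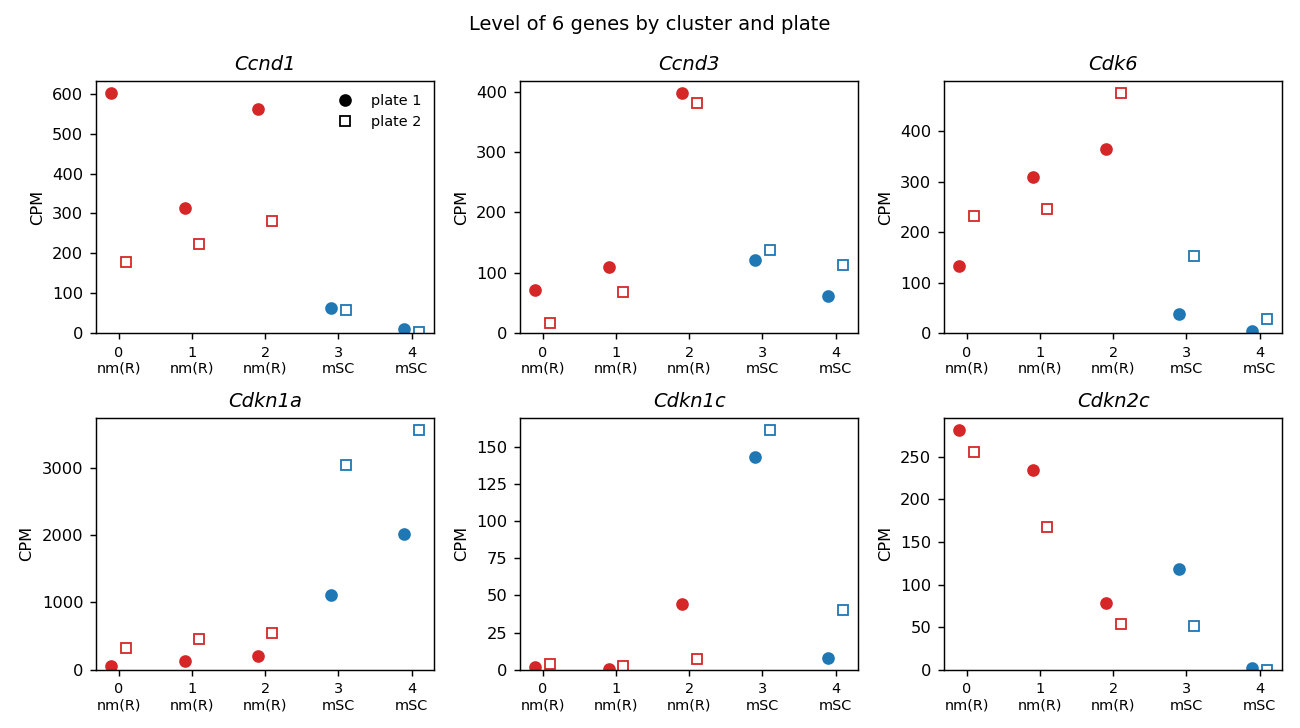
CPM of 6 genes in each cluster (0 to 2, nm(R)SC-like, red; 3 and 4, mSC-like, blue), by plate (filled circle, plate 1; open square, plate 2), each panel with its own axis from 0. Ccnd3 is highest in cluster 2 and Cdkn2c is near 0 in cluster 4 in both plates.

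The 14 cycling cells held Cdk4, Cdk6 and Cdkn2c above the summed level of non-myelinating-like cells of plate 1. Their summed level was 563 CPM for Cdk4, 585 CPM for Cdk6 and 564 CPM for Cdkn2c, against 276, 266 and 192 CPM in non-myelinating-like cells of the same plate, log2 ratios of 1.03, 1.13 and 1.55. Each of the 3 genes had 5 or more reads in 14 of 14 cells. At equal depth Cdk4, Cdk6 and Cdkn2c had them in 11, 11 and 12 of 12 cells. The shares of non-myelinating-like cells of plate 1 were 68.5%, 45.9% and 41.4%. These log2 ratios were taken with 1 CPM added. The median over all genes at 50 CPM or more in either group was 0.14. With 1 or more reads of Mki67 and Top2a as the rule, the log2 ratios of Cdk4, Cdk6 and Cdkn2c were 0.62, 0.46 and 1.42. Cells of cluster 2 in plate 1 that were not cycling stood at 435 CPM for Cdk4, 365 CPM for Cdk6 and 78.2 CPM for Cdkn2c.

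Ccnd1 was at 497 CPM in cycling cells and 512 CPM in non-myelinating-like cells (log2 ratio -0.04), and 13 of 14 cells held 5 reads of it. Ccnd3 stood at 431 CPM against 207 CPM (1.06). Ccnd2 had no read in the 14 cells, and 0 of 12 at equal depth allows a share of up to 25%, above the 6.31% of non-myelinating-like cells, so that a difference in the share of cells was not detectable.

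Of the inhibitors, Cdkn1a stood at 737 CPM in cycling cells against 136 CPM in non-myelinating-like and 1706 CPM in myelinating-like cells, and of the 7 genes at 50 CPM or more in either group it alone was at least 4-fold from non-myelinating-like cells (log2 ratio 2.44). Among all genes at that level, 19.3% were that far apart (11.6% higher and 7.67% lower in cycling cells). A single cycling cell held 45.7% of these reads, the level without it was 456 CPM, and 12 of 14 cells held 5 or more reads. Averaged over cells in place of summed, none of those at 50 CPM or more was 4-fold apart. Cdkn1b stood at 30.3 CPM against 80.4 CPM (log2 ratio -1.38), with 5 reads in 7 of 14 cells, but the log2 ratio turned to 0.47 when 1 or more reads of Mki67 and Top2a defined cycling cells. Cdkn1c had 1 read in all 14 cells, 0.209 CPM against 17.6 CPM, a ratio of 84.2 with nothing added (95% exact interval 15.1 to 3331, counting error only). A single non-myelinating-like cell held 35.5% of the Cdkn1c reads of its class in plate 1, which stood at 11.5 CPM without it. By cluster, Cdkn1c stood there at 44.1 CPM in cluster 2 but at 1.52 and 0.625 CPM in clusters 0 and 1. At equal depth 0 of 12 cycling cells held 5 Cdkn1c reads, which allows up to 25%, above the 8.11% of non-myelinating-like cells, so that a difference in the share of cells was not detectable. Rb1 stood at 5.85 CPM against 11.2 CPM.

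Cycling cells were read more deeply, at a median of 306642 reads against 150759 in non-myelinating-like cells of plate 1. Of the 14, 13 lay in cluster 5, led by Hmgn2, Hmgb2, H2afz and Top2a, and 1 in cluster 2. Cluster 5 held 15 cells of plate 1 and 14 of plate 2. The markers shared by all Schwann cells summed to 1331 CPM in cycling and 3209 CPM in non-myelinating-like cells, with Sox10 at 333 and 566 CPM. Of 5 fibroblast markers 3 were read in cycling cells, summing to 2902 CPM against 2400 CPM in non-myelinating-like and 1323 CPM in myelinating-like cells of plate 1, with Pdgfra and Lum at 0. The part of these markers and of depth in the cycling levels was not tested. At the edge of the rule, 2 cells had 9 reads of the lower of Mki67 and Top2a, none had 5 to 8, and 1 cell of plate 1 had 4 and 1 of plate 2 had 3.

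Of the 56 further genes of the pathway, 51 were tested between the classes and 1 was called. Foxo1, a transcription factor known to act on Cdkn1b, was higher in non-myelinating-like cells, at 54.0 and 28.4 CPM in myelinating-like and 258 and 178 CPM in non-myelinating-like cells (log2 ratio -2.28 ± 0.413, SE, edgeR, adjusted p = 0.0396; without the plate block 0.108). That is 1 of 51 beside the 2.11% of all genes. At an unadjusted p under 0.05 in edgeR there were 8 (15.7%, against 11.9% of all genes), of which 5 were regulators and 1 each was a later cyclin, an E2F target and a gene of the CDK-activating kinase. None of 9 tested genes of the RB-E2F core, 6 of the later cyclins and their kinases, 15 E2F targets of S phase, 2 other CDK inhibitors or 3 of the CDK-activating kinase was called, and 1 of 16 regulators was. With DESeq2 10 of the 51 tested genes were called, beside 11.9% of all genes. With limma on means over cells 6 were, beside 6.0% of all genes.

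In cycling cells these downstream genes were high. Among genes at 50 CPM or more in cycling or non-myelinating-like cells, 11.6% of all genes were at least 4-fold higher in cycling cells. All 7 of the later cyclins and kinases were (median log2 ratio 4.74), as were 4 of 5 RB-E2F core genes (5.55) and 11 of 13 E2F targets (3.34), where the median of all genes was 0.14. The rule for cycling cells used Mki67 and Top2a, which rise with these genes in dividing cells, so that the counts describe the cells chosen. Save for Mcm7 and Pcna, the counted genes of these lists reached 50 CPM in cycling cells only, so that this limit itself favoured high ratios. RB-E2F core genes below it in both groups included Rbl2 (41.4 against 36.5 CPM) and E2f1 (38.7 against 1.02 CPM). The largest ratios were those of Cdk1, the mitotic kinase, at 1374 against 11.1 CPM, E2f8 at 104 against 0.08 CPM, Rrm2, a subunit of ribonucleotide reductase, at 406 against 4.23 CPM, Ccnb1 at 638 against 8.69 CPM, and E2f7 at 54.1 against 0.03 CPM.

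**Figure D5:**
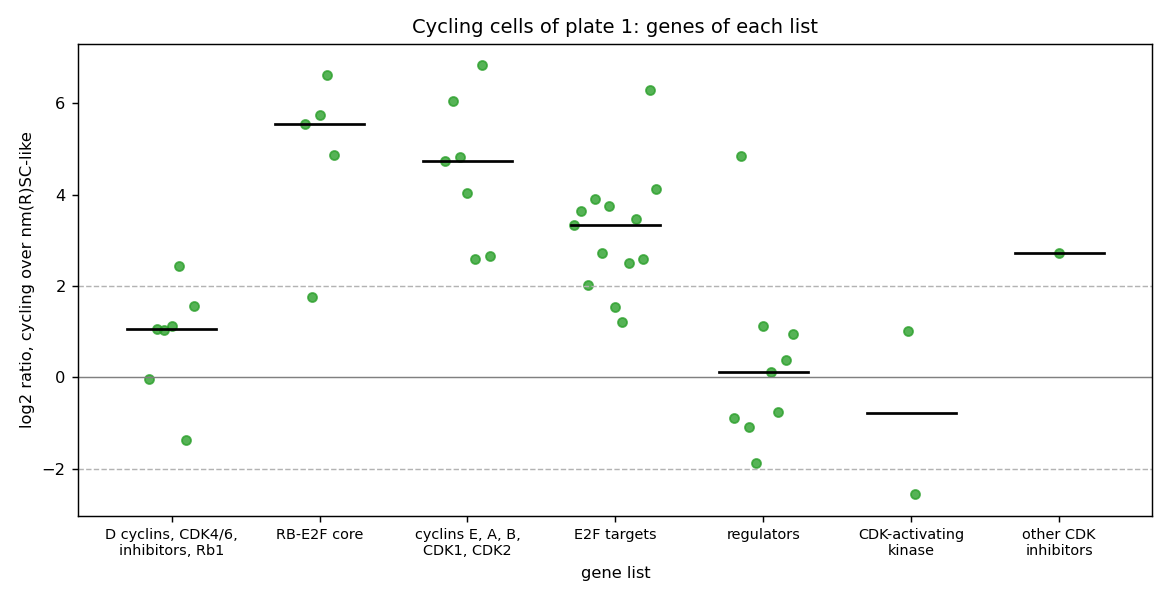
Log2 ratio of cycling over nm(R)SC-like cells of plate 1 (CPM + 1) for each gene at 50 CPM or more in either group, by gene list, with the median of each list as a black bar and dashed lines at 4-fold. The 7 later cyclins and kinases, which reached 50 CPM in cycling cells only, all lie above the upper line. Of the 7 shown of the first list, which all reached 50 CPM in nm(R)SC-like cells, 1 does.

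E2F-type words are shown for 3 of these downstream genes that held one. Such a word lay within 250 bases before a start in 5 of 12 E2F targets with a window and in 2 of 5 later cyclins and kinases. Over all genes with a window the share was 2.16%. The E2F targets were listed for being known as such, so that a share above this is built into that list. Capitals mark the word, with 10 bases on either side on the strand of the gene (GRCm38.p6), and in Mcm5 they span 2 overlapping words.
Cdk1, chr10:69353026-69353053, minus strand: ttccgctcccTTTCGCGCtctgcgctcc
Mcm5, chr8:75109346-75109377, plus strand: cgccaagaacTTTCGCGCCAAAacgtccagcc
Pola1, chrX:93632276-93632303, minus strand: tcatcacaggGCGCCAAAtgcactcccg

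The genes nearest to each member across the 5 sums of class and plate were sought among 7038 genes at a mean of 20 CPM or more, by the root mean square difference of centred log2(CPM + 1). Nearest to Ccnd1 were Itgb3 (0.23) and Rnd3 (0.31), and to Cdkn1a Elmo1 (0.21) and Mapkbp1 (0.35). Dock9 (0.08) and Sgf29 (0.17) came nearest to Cdkn1b, and Mpp1 (0.18) and Ckap4 (0.19) to Cdkn2c. For Ccnd3 they were Yeats4 (0.10) and Ufm1 (0.16), for Cdkn1c Dusp14 (0.29) and Abhd3 (0.40), and for Ccnd2 Ndrg2 (0.11) and Gm20481 (0.29). Ccnd2 lay below 20 CPM in all 5 sums, and Cdkn1c at 0.209 CPM in cycling cells. The 1 CPM added thus shaped part of the profiles of Ccnd2 and Cdkn1c. The order is a description with no test.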

How the data were processed

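Raw counts of reads per gene and cell were deposited by the authors as 1 table; the submitters' processing notes name bcl2fastq, STAR 2.6.1c, featureCounts and GRCm38.p5, and the strand setting is not given in the sources used here. Symbols and exons came from GENCODE M21. Cells with at least 1500 genes were kept. Classes were built with Seurat 5.3.0 (scale 100000, CCA integration of the plates, 12 dimensions, resolution 0.5). The 10 genes and 56 pathway genes were left out of every clustering, and all other genes were tested in classes built from the other of 2 random sets of genes, which placed 95.1% and 90.5% of 674 cells in the same class as all genes. No doublet caller was run. Counts were summed per plate and class and tested with edgeR 4.0.16 (TMM, filterByExpr with a minimum count of 10, plate block, Benjamini-Hochberg over all genes tested). Both classes of a plate came from the same mice, which pairs them; their deviations between plates correlated at r = 0.16 over 10516 genes. In a check on simulated data the test missed most changes with a log2 ratio of 2, so that a gene not called may still differ between the classes. Intervals cover counting error only, as PCR copies are not independent. In bulk sums, fewer expressing cells and less RNA per cell cannot be told apart except through the shares of cells.

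The genes and lists were chosen with earlier results of these data known. All 10 genes were named; of the pathway genes, those called and the 5 with the largest ratio in cycling cells at 50 CPM or more, and the 2 nearest genes of 7 members. Of 4 motifs searched, the p53 double half-site was added after the promoter windows had been seen; only its strict pattern was searched. DESeq2 1.42.0, limma 3.58.1 and other settings were alternatives, and limma on means over cells and leaving out the cluster led by cell-cycle genes were chosen after seeing the data.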

Additional observations from a re-analysis of the deposited data

How the results depend on the processing

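The count of the 10 genes called between the classes (3) was 6 with DESeq2, 6 with limma on means over cells, 5 without integration, 5 with thinned cells and 1 without the replicate block. That of the 56 pathway genes (1) was 10 with DESeq2, 6 with limma on means over cells, 2 with a minimum of 2500 genes, 2 with cycling cells in their class and 0 in edgeR without the replicate block, where 9 had an unadjusted p under 0.05. The share of all genes tested that was called (2.11%) was 11.9% with DESeq2, 6.0% with limma on means over cells, 3.82% with a minimum of 1000 genes, 3.81% without the gene split, 3.70% with classes from marker scores, 3.37% without integration, 3.31% with thinned cells and 0.992% without the replicate block. The cause was not tested. Ccnd1 was called in 14 of 14 alternatives, Cdkn1a and Cdkn1b in 13 of 14 (not without the block), Cdkn2c in 11, Cdkn1c in 4 and Cdk6 in 3. The log2 ratio of Ccnd3 turned to 0.41 without integration, 0.029 with marker scores and 0.40 without replicate 1, and was -1.32 without replicate 2. Leaving out a plate left 2 sums and no residual degrees of freedom, so these are values with no test. With 1 or more reads of Mki67 and Top2a as the rule, cycling cells numbered 37 in place of 14, 31 in plate 1 and 6 in plate 2. The cycling log2 ratio of Cdkn1b then turned from -1.38 to 0.47. With means over cells, 0 genes at 50 CPM or more in place of 1 were 4-fold apart in cycling cells. The 14 cycling cells of 1 plate limit every statement on them.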
